A study of Mus musculus with 4 samples.

Results

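The 10 genes described here encode stress-inducible and constitutive chaperones: the Hsp70 proteins Hspa1a, Hspa1b and Hspa8, their J-domain partners Dnajb1 and Dnaja1, the nucleotide exchange factor Hsph1, the cytosolic Hsp90 proteins Hsp90aa1 and Hsp90ab1, and Hspd1 and Hspe1. They were chosen by name, and each stands on 1 row of the 33696 genes in the deposited expression matrices. The set was labelled as cytosolic and nuclear, which does not cover Hspd1 and Hspe1, whose products form the chaperonin of the mitochondrial matrix, so the set is called heat shock chaperones here.

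Hsp70 proteins bind exposed hydrophobic stretches of unfolded proteins in a cycle driven by ATP: J-domain proteins deliver the client and trigger hydrolysis, and nucleotide exchange factors reset the cycle. Hsp90 proteins act on a later step and complete the folding of many kinases and receptors, while the mitochondrial chaperonin encloses proteins newly imported into the organelle. Most of these genes are targets of the transcription factor HSF1, which binds heat shock elements, inverted repeats of the bases GAA, and Hspa8, Hsp90ab1, Hspd1 and Hspe1 are in addition transcribed in unstressed cells.

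The chaperones were measured in cells obtained by peritoneal lavage of WT mice and sorted for CD45, the surface marker of leukocytes, in a study of how diet alters the immune cells of the cavity. HFD mice received a high-fat diet and CD mice chow, for 3 months from 4 weeks of age. Each diet is represented by 1 droplet 3' expression library and 1 B-cell receptor library, and how many mice went into each, or whether they were pooled, is not stated. A treatment note in the labels puts both groups on the high-fat diet, and the groups used here follow the sample titles and the design text, which names chow for CD.

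With 1 library per diet the comparisons below set 1 library against the other. They have no replicate check and no test, and every 95% interval covers counting error only, not differences between mice or preparations. Barcodes under 300 genes or above 10% mitochondrial unique molecular identifiers (UMIs) were left out, which kept 6684 barcodes and 57272371 UMIs in HFD and 13069 barcodes and 73371489 UMIs in CD. The libraries shared 30 barcodes, and no doublet caller was run.

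Barcodes without a receptor contig were taken as macrophages at 5 or more UMIs of Adgre1, Prg4, Alox15 and Garnl3 together (1526 in HFD and 2243 in CD), and as T cells at 2 or more UMIs of Cd3e, Cd3d and Cd3g (820 in HFD and 1117 in CD). Barcodes with a contig were taken as B cells and split by Fcer2a and Cr2, the surface receptors CD23 and CD21 of conventional B-2 cells. Fcer2a/Cr2-negative B cells had 0 UMIs of either gene (2409 in HFD and 4884 in CD) and Fcer2a/Cr2-positive B cells had 2 or more (768 in HFD and 1143 in CD). Both non-B rules were met by 49 HFD and 99 CD barcodes, which count in both classes. A negative barcode may be a B-2 cell in which neither transcript was caught. Markers that the rules did not use were read as a check, in CPM, the UMI count per 1000000 UMIs of the class. The macrophage growth factor receptor Csf1r was at 374 and 429 CPM in HFD and CD macrophages, the T-cell kinase Lck at 463 and 324 CPM in HFD and CD T cells, and the B-cell receptor component Cd79a at 3471 and 3334 CPM in HFD and CD Fcer2a/Cr2-negative B cells. The T-cell class was mixed, with Cd79a at 287 CPM in HFD and 985 CPM in CD, and 33.7% of HFD and 51.4% of CD T barcodes held 2 or more UMIs of B-cell markers.

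Depth and content differed between the libraries beside the diets. Median UMIs per barcode were 12275 in HFD and 4966 in CD macrophages, 5182 and 4033 in HFD and CD T cells, 6576 and 4552 in HFD and CD Fcer2a/Cr2-negative B cells, and 5337 and 4819 in HFD and CD Fcer2a/Cr2-positive B cells. Barcodes with a UMI of a mitosis or replication gene were 27.2% of HFD macrophages (exact Clopper-Pearson interval 24.98% to 29.5%) and 6.11% of CD macrophages (5.15% to 7.18%). Any UMI of these genes counted, so the shares were not taken at equal depth, and the part of depth in their difference was not tested. The 8 B-cell markers summed to 323 CPM in HFD and 1429 CPM in CD macrophages, and to 1033 CPM in HFD and 3044 CPM in CD T cells. The 12 macrophage markers summed to 5039 CPM in HFD and 6541 CPM in CD T cells, 2517 CPM in HFD and 4457 CPM in CD Fcer2a/Cr2-negative B cells, and 2724 CPM in HFD and 2499 CPM in CD Fcer2a/Cr2-positive B cells. The 5 neutrophil markers summed to 169 CPM in HFD and 8.14 CPM in CD Fcer2a/Cr2-negative B cells. Because every class expresses chaperones, free RNA from other cells cannot be told apart from a class's own transcripts by these genes alone.

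Stretches of the RefSeq promoter windows that hold inverted repeats of GAA, the unit from which heat shock elements are built, are shown first. The windows run from 250 bases before to 50 after each transcript start on build GRCm38.p6, and 7 of the 10 members matched, with 12 windows. The forms searched were found in 7 of these windows, which belong to 6 members. Hspa8, Hsp90aa1 and Hsp90ab1 were not matched. Capitals mark GAANNTTC or TTCNNGAA, each of which reads the same on both strands, with overlapping matches joined.
Hspa1a: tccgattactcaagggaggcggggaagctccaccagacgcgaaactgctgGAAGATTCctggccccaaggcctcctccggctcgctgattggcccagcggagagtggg
Dnaja1: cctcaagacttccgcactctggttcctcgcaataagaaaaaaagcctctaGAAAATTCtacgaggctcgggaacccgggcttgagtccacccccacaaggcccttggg
Hsph1: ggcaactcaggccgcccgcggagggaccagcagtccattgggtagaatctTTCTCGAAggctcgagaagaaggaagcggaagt
Hspd1: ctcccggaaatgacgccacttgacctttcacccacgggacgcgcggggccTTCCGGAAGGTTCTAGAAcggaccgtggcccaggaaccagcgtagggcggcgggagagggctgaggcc
Hspe1: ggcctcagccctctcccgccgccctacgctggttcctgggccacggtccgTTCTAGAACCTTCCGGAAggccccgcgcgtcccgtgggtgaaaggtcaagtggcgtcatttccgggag
The Hspa1a stretch is chr17:34972203-34972310 on the minus strand, with the capitals beginning 104 bases before the start. The Dnaja1 stretch is chr4:40722294-40722401 on the plus strand, with the capitals 124 bases before the start of the first of its 3 windows, and the Hsph1 stretch is chr5:149636337-149636419 on the minus strand, with the capitals 33 bases before the start of the first of its 2 windows. Hspd1 and Hspe1 are transcribed away from each other out of the same 118 bases, chr1:55088009-55088126, read on the minus strand for Hspd1 and on the plus strand for Hspe1. Their 18 capital bases are the same genomic bases, 144 bases before the second of 2 Hspd1 starts and 89 bases before the Hspe1 start. The window of the other Hspd1 start holds none of the forms.

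The Hspd1 and Hspe1 run holds the 3-unit forms GAANNTTCNNGAA and TTCNNGAANNTTC, which occur in 0.603% of all 32851 promoter windows of this length. The printed Hspa1a, Dnaja1 and Hsph1 stretches hold only a single 8-base form. Such single forms are common, with GAANNTTC in 7.86% of windows, TTCNNGAA in 8.52% and either in 15.1%. Hsph1 has a further 3-unit match that lies after the start and is not printed. Neither Dnajb1 window holds any of the forms, and the Hspa1a and Hspa1b windows are identical at 296 of 300 positions. A match is a description of letters in this window and says nothing of HSF1 binding in these cells.

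The summed Hsp70 genes and their partners were lower in HFD in every class. Each of the 6 genes had a counting interval below 0 in every class except Hspa1a in T cells, at -0.13 (-1.58 to 1.28). Summed over Hspa1a, Hspa1b, Hspa8, Dnajb1, Dnaja1 and Hsph1, the Hsp70 system was at 1099 CPM in HFD and 1853 CPM in CD macrophages, 1.69-fold lower. It was at 1423 CPM in HFD and 1808 CPM in CD T cells, 1.27-fold lower. Fcer2a/Cr2-negative B cells held 985 CPM in HFD and 1506 CPM in CD, 1.53-fold lower, and Fcer2a/Cr2-positive B cells 998 CPM in HFD and 1545 CPM in CD, 1.55-fold lower. The log2 ratio of HFD over CD was -0.75 (95% interval -0.78 to -0.73) in macrophages, -0.35 (-0.39 to -0.30) in T cells, -0.61 (-0.64 to -0.59) in Fcer2a/Cr2-negative and -0.63 (-0.68 to -0.58) in Fcer2a/Cr2-positive B cells. The macrophage ratio lay 0.41 log2 units below the T-cell ratio, a difference of -0.41 (-0.46 to -0.36), while the B classes lay between them and differed from each other by 0.02 (-0.04 to 0.07).

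**Figure D1:**
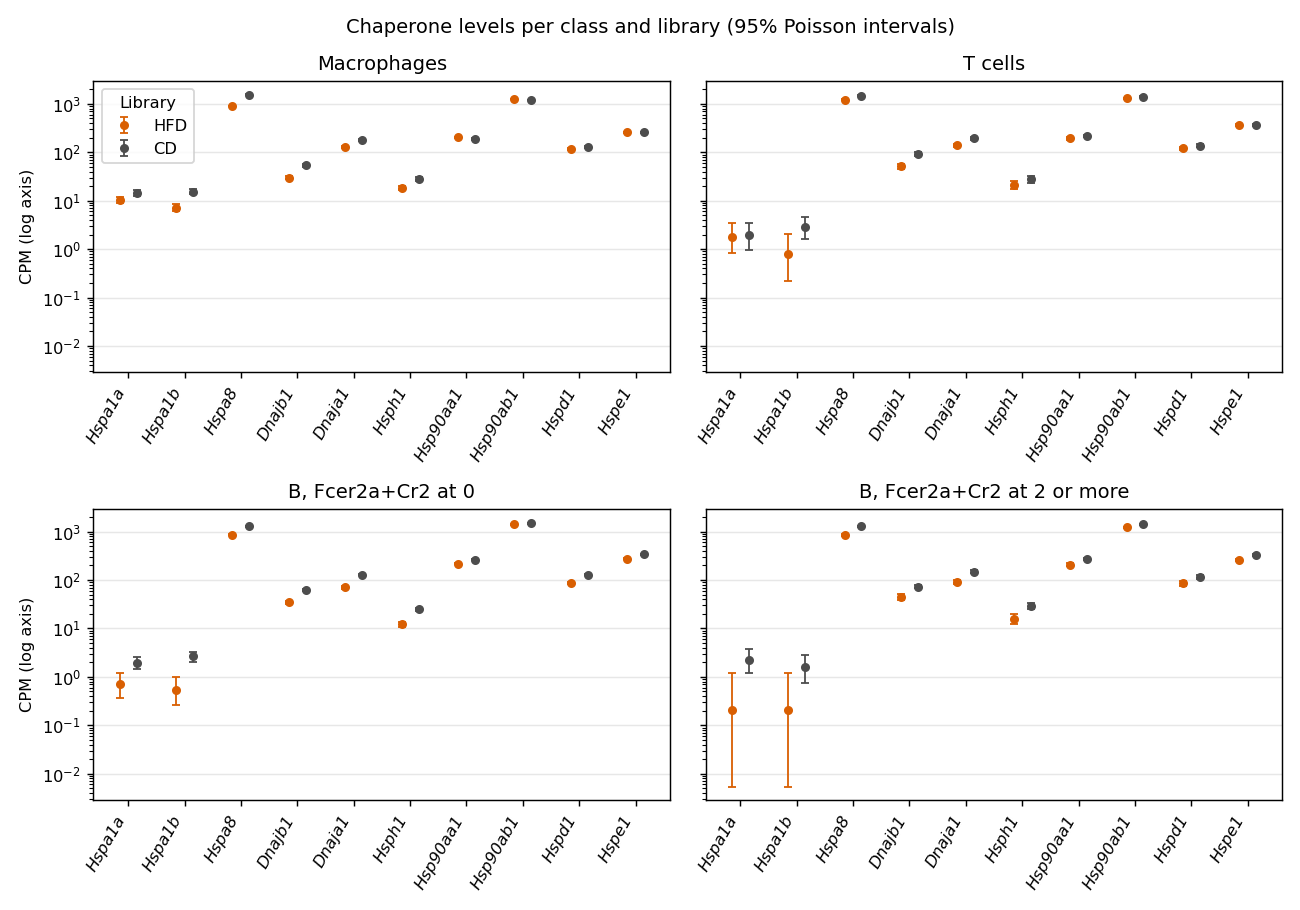
Level of each chaperone gene in CPM on a log axis, in 4 panels for the 4 classes, with HFD (orange) left of CD (grey) and bars for exact 95% Poisson intervals of the count. The points for Hspa8, Dnajb1, Dnaja1 and Hsph1 are lower in HFD in all 4 panels, while those for Hsp90ab1 lie close together, at 1264 CPM in HFD and 1209 CPM in CD macrophages.

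Hspa8, the constitutive Hsp70 (Hsc70), supplied most of the UMIs of this group. It stood at 904 CPM in HFD and 1560.4 CPM in CD macrophages, and at 1208 CPM in HFD and 1489.5 CPM in CD T cells. In B cells it stood at 866 CPM in HFD and 1285 CPM in CD where Fcer2a and Cr2 were absent, and at 845 CPM in HFD and 1288 CPM in CD where they were present. HFD was the lower library each time, and the size depended on the class: the log2 ratio was -0.79 (-0.82 to -0.76) in macrophages, -0.30 (-0.35 to -0.25) in T cells, -0.57 (-0.60 to -0.54) in Fcer2a/Cr2-negative and -0.61 (-0.66 to -0.55) in Fcer2a/Cr2-positive B cells. The macrophage and T-cell ratios differed by -0.48 (-0.54 to -0.43).

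Hspa1a and Hspa1b, the strongly heat-inducible Hsp70 genes, are near-identical copies, so reads that match both cannot be assigned and their separate values are uncertain. Hspa1a had 10.4 CPM in HFD and 14.3 CPM in CD macrophages, from 220 and 214 UMIs in HFD and CD. Hspa1b had 7.22 CPM in HFD and 15.4 CPM in CD macrophages, a log2 ratio of -1.10 (-1.40 to -0.79) against -0.45 (-0.73 to -0.17) for Hspa1a. In lymphocytes both genes were near the limit of detection. Fcer2a/Cr2-negative B cells gave 13 and 54 Hspa1a UMIs in HFD and CD, a log2 ratio of -1.51 (-2.51 to -0.62), and 10 and 72 Hspa1b UMIs in HFD and CD, a ratio of -2.30 (-3.42 to -1.34). Fcer2a/Cr2-positive B cells gave 1 and 14 Hspa1a UMIs in HFD and CD, a ratio of -3.38 (-8.78 to -0.66), and 1 and 10 Hspa1b UMIs in HFD and CD, a ratio of -2.89 (-8.33 to -0.08). T cells gave 9 and 11 Hspa1a UMIs in HFD and CD, where no difference was detectable (-1.58 to 1.28), and 4 and 16 Hspa1b UMIs in HFD and CD, a ratio of -1.84 (-3.88 to -0.21). Without 2-lineage barcodes, those that also held 2 or more UMIs of another class's markers, intervals of Hspa1b included 0 in T cells, at -0.49 (-4.28 to 3.29), and in Fcer2a/Cr2-positive B cells, at -2.16 (-7.65 to 0.80). The thinned Hspa1b value in Fcer2a/Cr2-positive B cells was -0.41, from 1 random draw and without an interval. In Fcer2a/Cr2-negative B cells without 2-lineage barcodes Hspa1a was at -1.67 (-3.67 to -0.10) and Hspa1b at -1.60 (-3.34 to -0.19). Both genes had higher levels in macrophages than in these B cells, where macrophage markers were also lower in HFD, and the part of macrophage RNA in the B-cell values was not otherwise tested. The macrophage UMIs of Hspa1a came from 162 HFD and 163 CD barcodes, with at most 8 UMIs in an HFD and 11 in a CD barcode.

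Dnajb1 encodes Hsp40, the heat-inducible J-domain partner of Hsp70, and was the member whose ratio varied least between classes over all barcodes. It was at 29.8 CPM in HFD and 54.1 CPM in CD macrophages, and at 51.7 CPM in HFD and 92.0 CPM in CD T cells. Fcer2a/Cr2-negative B cells held 34.9 CPM in HFD and 63.3 CPM in CD, and Fcer2a/Cr2-positive B cells 44.1 CPM in HFD and 73.3 CPM in CD. The log2 ratios were -0.86 (-1.01 to -0.71) in macrophages, -0.83 (-1.05 to -0.61) in T cells, -0.86 (-0.99 to -0.73) in Fcer2a/Cr2-negative and -0.73 (-0.98 to -0.50) in Fcer2a/Cr2-positive B cells. Over the 6 pairs of classes the differences between ratios had intervals that all included 0. The widest ran from -0.42 to 0.22 (T less Fcer2a/Cr2-positive B cells), so a difference within that range was not detectable at this depth.

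Dnaja1, a farnesylated J-domain protein that works with Hspa8 in the cytosol, was lower in HFD in every class but by unequal amounts. It was at 129 CPM in HFD and 181 CPM in CD macrophages, and at 139 CPM in HFD and 193 CPM in CD T cells, log2 ratios of -0.49 (-0.57 to -0.41) and -0.48 (-0.62 to -0.34). In Fcer2a/Cr2-negative B cells it was at 70.4 CPM in HFD and 129 CPM in CD, a ratio of -0.87 (-0.97 to -0.78). The macrophage ratio was higher than that of these B cells by 0.38 (0.26 to 0.50) over all barcodes. Without 2-lineage and cycling barcodes at 3000 to 10000 UMIs the ratios were -0.73 (-0.98 to -0.49) in macrophages and -0.82 (-0.97 to -0.68) in these B cells, with overlapping intervals. The interval of their difference was not computed there. Fcer2a/Cr2-positive B cells held 92.8 CPM in HFD and 149.7 CPM in CD, a ratio of -0.69 (-0.86 to -0.53).

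Hsph1 encodes Hsp110, which exchanges nucleotide on Hsp70 and helps to dissolve aggregates. Its level in HFD and CD was 18.7 and 27.7 CPM in macrophages, 21.6 and 27.9 CPM in T cells, 12.2 and 24.7 CPM in Fcer2a/Cr2-negative B cells, and 15.8 and 29.6 CPM in Fcer2a/Cr2-positive B cells. HFD was again lower throughout. The log2 ratio was -0.57 (-0.77 to -0.36) in macrophages and -0.37 (-0.74 to -0.01) in T cells, against -1.02 (-1.25 to -0.80) and -0.90 (-1.31 to -0.51) in Fcer2a/Cr2-negative and Fcer2a/Cr2-positive B cells. The order of classes was uncertain under the alternatives. At 3000 to 10000 UMIs macrophages were at -0.88 (-1.35 to -0.43) and Fcer2a/Cr2-negative B cells at -0.97 (-1.28 to -0.67). Thinned T cells were at -0.99 and thinned Fcer2a/Cr2-negative B cells at -0.90, from 1 random draw and without intervals. In the separate draw used for the distributions over barcodes, 4.36% of HFD and 5.83% of CD T cells held an Hsph1 UMI. The shares there were 2.16% of HFD and 4.43% of CD Fcer2a/Cr2-negative B cells. Even over all barcodes the macrophage ratio less that of Fcer2a/Cr2-positive B cells had an interval that included 0 (-0.10 to 0.77).

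**Figure D2:**
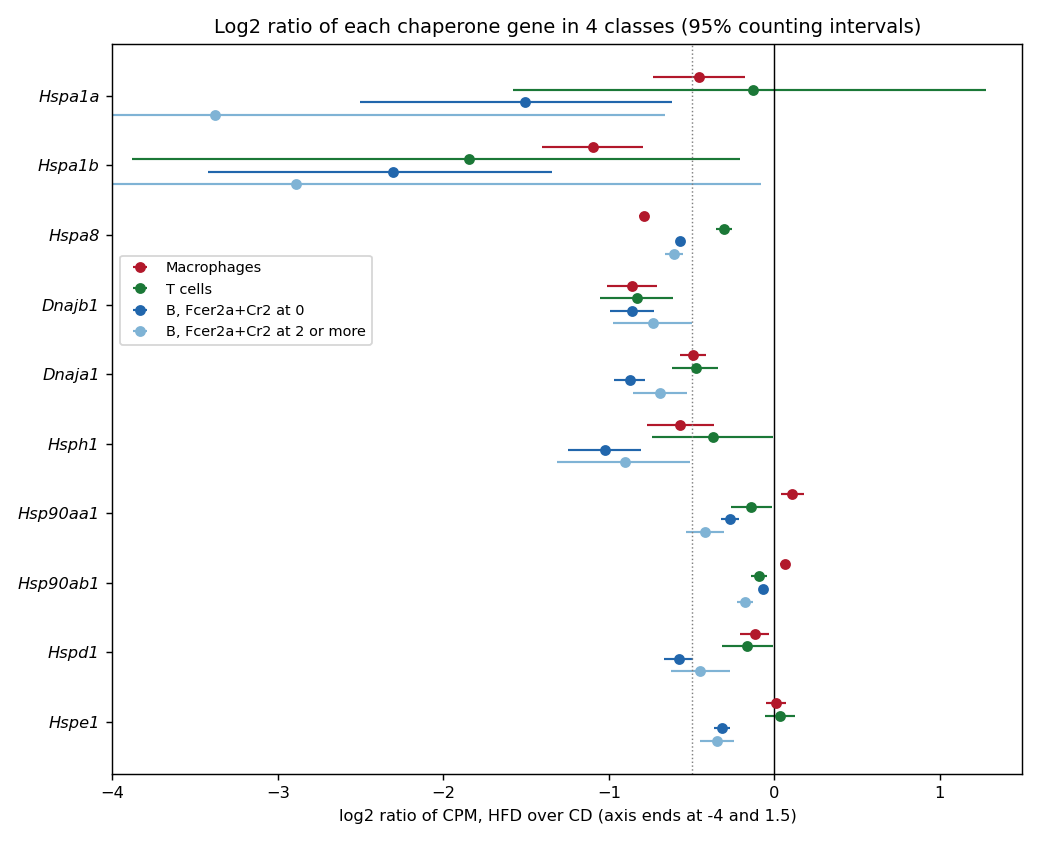
Log2 ratio of CPM, HFD over CD, for each chaperone gene in macrophages (red), T cells (green), Fcer2a/Cr2-negative B cells (dark blue) and Fcer2a/Cr2-positive B cells (light blue), with 95% counting intervals as bars, a solid line at 0 and a dotted line at -0.5. Dnajb1 is near the same value in the 4 classes, from -0.86 to -0.73, whereas Hsp90aa1 runs from -0.42 in Fcer2a/Cr2-positive B cells to 0.11 in macrophages, where it is -0.22 at 3000 to 10000 UMIs and 0.17 without 2-lineage barcodes.

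Summed, the Hsp90 pair differed less between the libraries than the Hsp70 system in each class. Its log2 ratios were 0.07, -0.10, -0.10 and -0.21 in macrophages, T cells, Fcer2a/Cr2-negative and Fcer2a/Cr2-positive B cells. Most UMIs of the pair came from Hsp90ab1, while Hsp90aa1 alone reached -0.42 in Fcer2a/Cr2-positive B cells. Hsp90ab1, the constitutive isoform, was at 1264 CPM in HFD and 1209 CPM in CD macrophages, a log2 ratio of 0.06 (0.04 to 0.09) that became -0.02 when macrophages were restricted to 3000 to 10000 UMIs. It was at 1303.5 CPM in HFD and 1392 CPM in CD T cells, a ratio of -0.09 (-0.14 to -0.05). Fcer2a/Cr2-negative B cells held 1406.5 CPM in HFD and 1475 CPM in CD, and Fcer2a/Cr2-positive B cells 1242 CPM in HFD and 1403 CPM in CD, ratios of -0.07 (-0.09 to -0.05) and -0.18 (-0.22 to -0.13). Each of these ratios is smaller in size than that of Hspa8 in the same class.

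Hsp90aa1, the inducible isoform, was at 202.5 CPM in HFD and 188 CPM in CD macrophages, a log2 ratio of 0.11 (0.04 to 0.18) that was -0.22 at 3000 to 10000 UMIs, -0.05 after thinning to equal depth and -0.00 without cycling barcodes. Without 2-lineage barcodes the macrophage ratio was 0.17 (0.08 to 0.26), and 7 of 10 alternatives kept its sign. In T cells it was at 195 CPM in HFD and 215 CPM in CD, a ratio of -0.14 (-0.26 to -0.02). It was at 218 CPM in HFD and 262.5 CPM in CD Fcer2a/Cr2-negative B cells, and at 207 CPM in HFD and 277 CPM in CD Fcer2a/Cr2-positive B cells. The B-cell ratios, -0.27 (-0.32 to -0.21) and -0.42 (-0.53 to -0.30) in Fcer2a/Cr2-negative and Fcer2a/Cr2-positive cells, also differed from each other, by 0.15 (0.02 to 0.27).

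Hspd1 (Hsp60) and Hspe1 (Hsp10), the barrel and the lid of the mitochondrial chaperonin, had lower ratios in both B classes than in macrophages and T cells over all barcodes, an order that Hspd1 lost between macrophages and B cells in the depth-matched subset given further on. Hspd1 was at 117 CPM in HFD and 127 CPM in CD macrophages, and at 121 CPM in HFD and 136 CPM in CD T cells, log2 ratios of -0.12 (-0.21 to -0.03) and -0.16 (-0.32 to -0.01). It was at 87.0 CPM in HFD and 129.9 CPM in CD Fcer2a/Cr2-negative B cells, a ratio of -0.58 (-0.66 to -0.49), and at 84.8 CPM in HFD and 116 CPM in CD Fcer2a/Cr2-positive B cells, a ratio of -0.45 (-0.62 to -0.27).

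Hspe1 levels in HFD and CD were 261 and 259 CPM in macrophages and 372 and 363 CPM in T cells, where no difference was detectable (-0.05 to 0.07 and -0.06 to 0.13). They were 275 and 342 CPM in Fcer2a/Cr2-negative B cells and 258 and 328 CPM in Fcer2a/Cr2-positive B cells, log2 ratios of -0.32 (-0.36 to -0.27) and -0.35 (-0.45 to -0.24). The 2 genes together had ratios of -0.03 (-0.08 to 0.02) in macrophages, -0.02 (-0.09 to 0.06) in T cells, -0.38 (-0.43 to -0.34) in Fcer2a/Cr2-negative and -0.37 (-0.46 to -0.28) in Fcer2a/Cr2-positive B cells. The macrophage ratio was above that of Fcer2a/Cr2-negative B cells by 0.35 (0.29 to 0.42), and at 3000 to 10000 UMIs it was -0.20 (-0.30 to -0.10). Over all barcodes the ratio was lower for Hspd1 than for Hspe1 in all 4 classes, with overlapping intervals except in Fcer2a/Cr2-negative B cells. Among cycling barcodes the order was reversed in macrophages, at 0.14 for Hspd1 and 0.09 for Hspe1. It was also reversed in cycling Fcer2a/Cr2-positive B cells, at 0.10 and -0.08, but not in the other classes. A link of these ratios to the promoter letters that the genes share was not tested.

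The summed level of the 10 genes was at 2943 CPM in HFD and 3636 CPM in CD macrophages, 3414 CPM in HFD and 3913 CPM in CD T cells, 2972 CPM in HFD and 3716 CPM in CD Fcer2a/Cr2-negative B cells, and 2791 CPM in HFD and 3668 CPM in CD Fcer2a/Cr2-positive B cells. The log2 ratio was -0.30 (-0.32 to -0.29) in macrophages, -0.20 (-0.23 to -0.17) in T cells, -0.32 (-0.34 to -0.31) in Fcer2a/Cr2-negative and -0.39 (-0.43 to -0.36) in Fcer2a/Cr2-positive B cells. These sums hide the different make-up of the classes. Near-equal sums in macrophages and Fcer2a/Cr2-negative B cells, 0.02 apart (-0.00 to 0.04), were made of a lower Hsp70 ratio in macrophages and of lower Hsp90 and chaperonin ratios in these B cells.

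The question whether the chaperones were lower to the same extent in every class had a different answer for different members over all barcodes. Of 8 members compared in each pair of classes (Hspa1a and Hspa1b left out for low counts), the counting interval of the difference excluded 0 for 7 between macrophages and Fcer2a/Cr2-negative B cells, 6 between macrophages and Fcer2a/Cr2-positive B cells, 5 between T cells and Fcer2a/Cr2-negative B cells, and 7 between T cells and Fcer2a/Cr2-positive B cells. It did so for 3 between macrophages and T cells and for 2 between the B classes. The intervals of these differences come from the 4 UMI sums involved. The share of all genes that would exclude 0 was not computed, so these counts have no background. In the smaller depth-matched subset given further on, macrophage and Fcer2a/Cr2-negative intervals overlapped for Dnaja1, Hsph1, Hsp90ab1, Hspe1 and Hspd1 (-0.67 and -0.61). They stayed apart for Hsp90aa1 and for Hspa8 (-1.07 and -0.55). Overlap of separate intervals is a looser criterion than the interval of a difference, which was not computed in this subset. With fewer barcodes the intervals were also wider, so overlap there does not show that the ratios were equal.

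Against all genes, 7 of the 10 members reached 30 CPM in the higher library and 50 UMIs in each class; Hspa1a, Hspa1b and Hsph1 did not. In macrophages 6.38% of 4120 genes lay at a log2 ratio of -0.5 or lower, as did 2 of the 7 members, Hspa8 and Dnajb1. In T cells the background was 7.25% of 4550 genes and 1 of 7 members, Dnajb1. In Fcer2a/Cr2-negative B cells it was 3.6% of 4003 genes and 4 of 7 members, namely Hspa8, Dnajb1, Dnaja1 and Hspd1, and in Fcer2a/Cr2-positive B cells 1.72% of 4296 genes and 3 of 7 members, namely Hspa8, Dnajb1 and Dnaja1. At 0.5 or higher lay 5.07% of genes in macrophages, 4.04% in T cells, 2.92% in Fcer2a/Cr2-negative and 3.49% in Fcer2a/Cr2-positive B cells, and 0 of 7 members in each class.

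The median ratio of the 7 members was -0.12 in macrophages against 0.01 over all genes, -0.16 in T cells against -0.02, -0.57 in Fcer2a/Cr2-negative B cells against -0.01, and -0.45 in Fcer2a/Cr2-positive B cells against 0.04. Dnajb1 stood among the lowest genes of each class, with 3.06%, 3.41%, 1.67% and 1.001% of genes at or below it in macrophages, T cells, Fcer2a/Cr2-negative and Fcer2a/Cr2-positive B cells. Hspa8 had 14.7% of genes at or below it in T cells, against 3.40% in macrophages, 3.05% in Fcer2a/Cr2-negative and 1.26% in Fcer2a/Cr2-positive B cells. Hsp90ab1 had 58.7% of genes at or below it in macrophages, 36.4% in T cells, 37.9% in Fcer2a/Cr2-negative and 14.3% in Fcer2a/Cr2-positive B cells. For Hsp90aa1 the shares were 65.7%, 29.9%, 9.74% and 2.58% in the same order of classes.

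**Figure D3:**
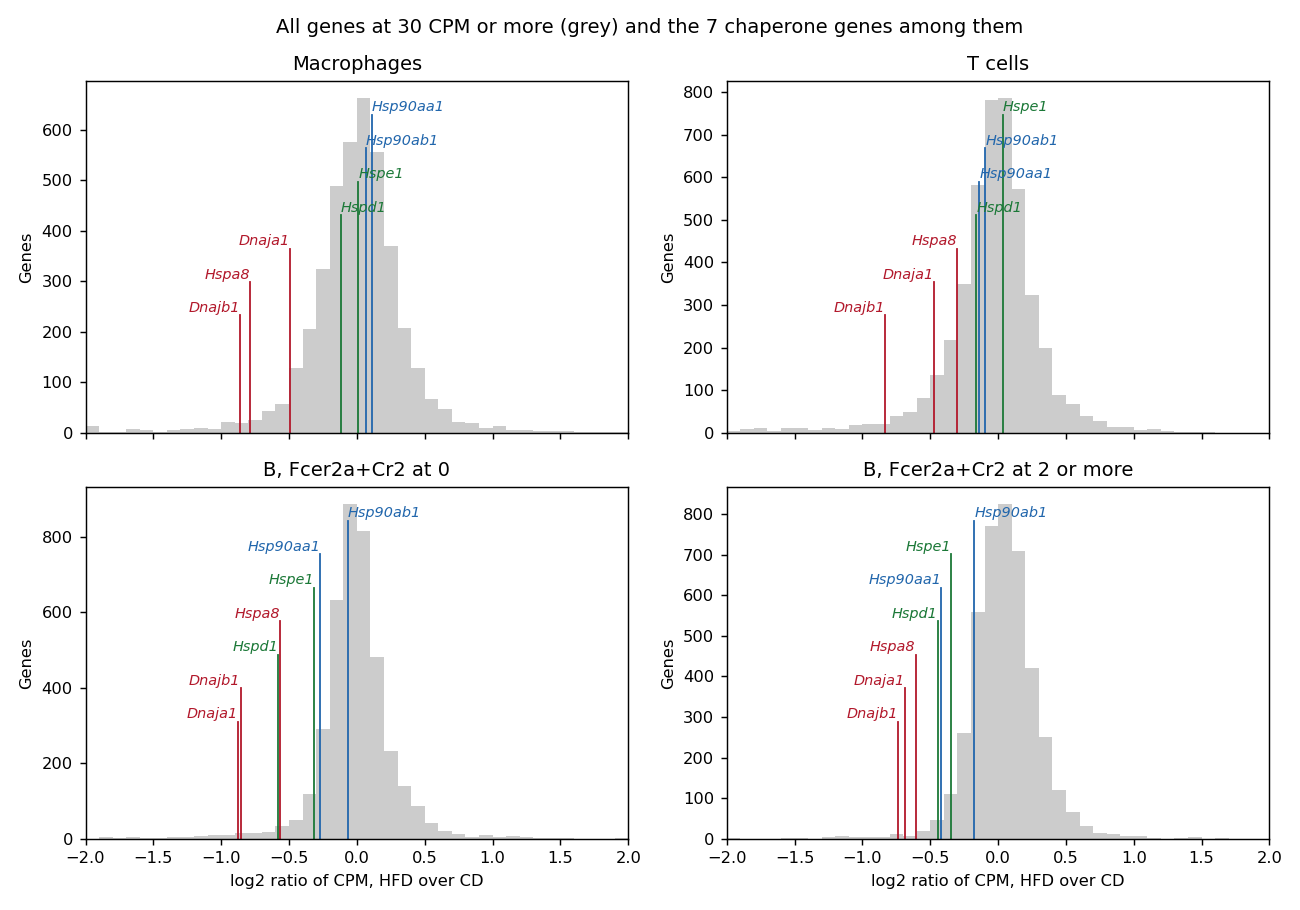
Number of genes by log2 ratio of CPM, HFD over CD, for all genes that reached 30 CPM (grey bars), in a panel per class, with lines at the 7 chaperone genes among them (red Hsp70 system, blue Hsp90, green mitochondrial chaperonin). In both B panels Hspd1 and Hspe1 stand left of the bulk of genes; in macrophages and T cells they stand inside it, with Hspe1 at 0.01 and 0.04.

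The balance within the set shifted with these ratios. UMI counts mark transcript molecules by their 3' end, so shares of the set's UMIs are shares of molecules caught, not scaled by length. In macrophages Hsp90ab1 gave 42.9% (42.6% to 43.3%) of the set's UMIs in HFD and 33.2% (32.9% to 33.6%) in CD, and Hspa8 30.7% (30.4% to 31.1%) in HFD and 42.9% (42.5% to 43.3%) in CD. In T cells Hsp90ab1 gave 38.2% (37.4% to 38.9%) in HFD and 35.6% (34.9% to 36.2%) in CD, and Hspa8 35.4% (34.7% to 36.1%) in HFD and 38.1% (37.4% to 38.7%) in CD. The leading transcript was thus Hsp90ab1 in HFD and Hspa8 in CD for both of these classes, whereas Hsp90ab1 led in both libraries in the B classes, with 47.3% in HFD and 39.7% in CD Fcer2a/Cr2-negative B cells.

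The Hsp70 difference was also seen in the distribution over barcodes. After each barcode was thinned to 2000 UMIs, Hsp70 system UMIs per barcode averaged 2.15 ± 1.74 in HFD and 3.65 ± 2.40 in CD macrophages (SD over 1462 and 1993 barcodes in HFD and CD, not replicates). They averaged 2.82 ± 1.87 in HFD and 3.78 ± 2.37 in CD T cells, 1.92 ± 1.59 in HFD and 2.99 ± 2.13 in CD Fcer2a/Cr2-negative B cells, and 1.97 ± 1.53 in HFD and 3.13 ± 2.19 in CD Fcer2a/Cr2-positive B cells. The mean was lower in HFD in each class. The share of barcodes with 0 Hsp70 system UMIs at this depth was 15.2% (13.4% to 17.1%) in HFD and 5.22% (4.28% to 6.29%) in CD macrophages, and 8.08% (6.26% to 10.2%) in HFD and 4.89% (3.62% to 6.45%) in CD T cells. It was 18.5% (16.9% to 20.1%) in HFD and 7.8% (7.06% to 8.6%) in CD Fcer2a/Cr2-negative B cells, and 16.8% (14.2% to 19.6%) in HFD and 6.92% (5.51% to 8.56%) in CD Fcer2a/Cr2-positive B cells. The Hsp90 pair averaged 2.79 UMIs in HFD and 2.78 in CD macrophages, and 3.21 in HFD and 3.30 in CD Fcer2a/Cr2-negative B cells. It averaged 2.83 in HFD and 3.20 in CD T cells, and 2.66 in HFD and 3.14 in CD Fcer2a/Cr2-positive B cells.

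**Figure D4:**
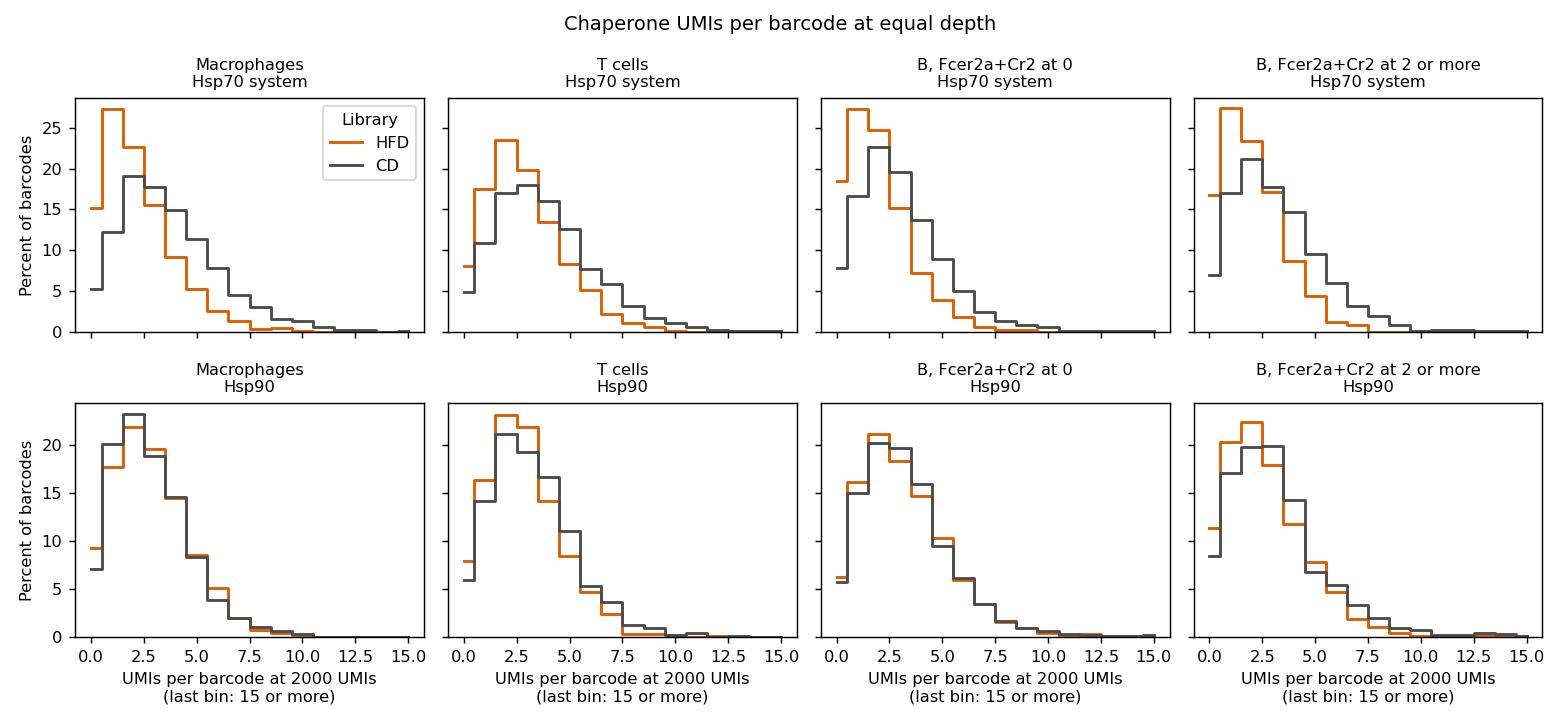
Percent of barcodes by number of chaperone UMIs after thinning to 2000 UMIs, for the Hsp70 system (top row) and the Hsp90 pair (bottom row) in the 4 classes, with HFD in orange and CD in grey. In the top row the HFD curves lie left of the CD curves, with 15.2% of HFD and 5.22% of CD macrophages at 0, and in the bottom row the curves nearly coincide in macrophages.

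Without thinning, the median of all 10 genes per 10000 UMIs was 27.0 in HFD and 34.1 in CD macrophages, 32.6 in HFD and 37.1 in CD T cells, 26.8 in HFD and 33.5 in CD Fcer2a/Cr2-negative B cells, and 25.4 in HFD and 32.7 in CD Fcer2a/Cr2-positive B cells. Within a library, mean Hspa8 UMIs at equal depth were compared between barcodes with and without a UMI of a partner gene, in 8 pairs of class and library and with no test. The mean was higher with an Hsph1 UMI in 7 of the 8 pairs and with a Dnajb1 UMI in 4 of 8. In macrophages the means with and without Hsph1 were 1.88 and 1.77 in HFD and 3.62 and 3.03 in CD, and those with and without Dnajb1 were 1.70 and 1.78 in HFD and 3.47 and 3.01 in CD. In Fcer2a/Cr2-positive B cells, the exception for Hsph1, they were 1.41 with and 1.66 without it in HFD, over 17 barcodes with it, and 3.03 with and 2.56 without it in CD. Mean Hsp90ab1 UMIs, outside the Hsp70 system, were also higher with an Hsph1 UMI in every pair except HFD macrophages. In Fcer2a/Cr2-negative B cells they were 3.57 with and 2.76 without it in HFD, and in HFD macrophages 2.27 with and 2.46 without it.

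Cell cycle, mixed barcodes and depth moved with the comparison in macrophages, and the values within strata were as follows. Among cycling macrophages, 415 in HFD and 137 in CD, the Hsp70 system stood at 1210.0 CPM in HFD and 2029 CPM in CD, a log2 ratio of -0.75 (-0.81 to -0.68), and the Hsp90 pair at 0.00 (-0.07 to 0.07). Among the others the ratios were -0.82 (-0.85 to -0.79) and 0.03 (0.01 to 0.06). Without 2-lineage barcodes, for which the B-cell markers were Cd79a, Cd79b and Ms4a1, the Hsp70 ratio was -0.79 (-0.83 to -0.76) in macrophages and -0.39 (-0.45 to -0.33) in T cells. At 3000 to 10000 UMIs it was -0.92 (-0.98 to -0.87) in macrophages, where the Hsp90 pair was at -0.04 (-0.10 to 0.01).

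With 2-lineage and cycling barcodes left out and depth held to the same range, a combination chosen after seeing the data, 252 HFD and 587 CD macrophages remained. Their Hsp70 ratio was -1.03 (-1.12 to -0.95), their Hsp90 ratio -0.04 (-0.12 to 0.03) and their Hspd1 ratio -0.67 (-0.96 to -0.39), against -0.12 for Hspd1 in all macrophages. Hspd1 in the same subset was at -0.61 (-0.75 to -0.48) in Fcer2a/Cr2-negative and -0.66 (-0.91 to -0.41) in Fcer2a/Cr2-positive B cells, so its macrophage ratio no longer stood above those of B cells. The Hsp70 ratio in the same subset was -0.41 (-0.49 to -0.34) in T cells, -0.60 (-0.64 to -0.56) in Fcer2a/Cr2-negative and -0.67 (-0.73 to -0.60) in Fcer2a/Cr2-positive B cells, in the same order of classes as in all barcodes.

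Barcodes outside the 4 classes were read in the same way. B barcodes with exactly 1 UMI of Fcer2a and Cr2, 500 in HFD and 1085 in CD, had an Hsp70 ratio of -0.64 (-0.70 to -0.58), an Hsp90 ratio of -0.15 (-0.20 to -0.10) and a chaperonin ratio of -0.41 (-0.51 to -0.30). Barcodes with no contig that met no rule, 710 in HFD and 2696 in CD, had ratios of -0.67 (-0.71 to -0.62), -0.14 (-0.17 to -0.10) and -0.40 (-0.48 to -0.33) in that order.

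Among T cells, those with a Cd4 and no Cd8a UMI (206 in HFD and 238 in CD) had an Hsp70 ratio of -0.38 (-0.47 to -0.30). Those with a Cd8a and no Cd4 UMI (189 in HFD and 151 in CD) had -0.19 (-0.29 to -0.09). In the Cd8a cells Hspa8 was at 1332 CPM in HFD and 1422 CPM in CD, where no difference was detectable (-0.20 to 0.01), while Dnajb1 was at 41.5 CPM in HFD and 106 CPM in CD, a ratio of -1.36 (-1.87 to -0.85).

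Further genes of protein folding, stress and temperature response were grouped into lists, shown in the plot of list medians. HSF1 targets and Hsp70 or Hsp90 cofactors beyond the 10 members were counted in the same way. Of 27 listed genes, 21, 20, 19 and 20 could be compared in macrophages, T cells, Fcer2a/Cr2-negative and Fcer2a/Cr2-positive B cells. At -0.5 or lower were 3, 1, 1 and 1, and at 0.5 or higher 1 in each class, beside the backgrounds given above. The medians were -0.12, -0.02, -0.10 and -0.04 in the same order of classes, against the members' -0.12, -0.16, -0.57 and -0.45.

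Bag1, a nucleotide exchange factor of Hsp70, was the gene at 0.5 or higher. It was at 120.0 CPM in HFD and 77.0 CPM in CD macrophages, 95.5 CPM in HFD and 62.9 CPM in CD T cells, 84.4 CPM in HFD and 54.6 CPM in CD Fcer2a/Cr2-negative B cells, and 72.3 CPM in HFD and 46.7 CPM in CD Fcer2a/Cr2-positive B cells, log2 ratios of 0.64, 0.60, 0.63 and 0.63. The opposite direction was seen for Cacybp, the calcyclin-binding protein, at -0.40, -0.44, -0.65 and -0.74 in macrophages, T cells, Fcer2a/Cr2-negative and Fcer2a/Cr2-positive B cells. The Hsp90 co-chaperone Chordc1 was at -0.57, -0.42, -0.39 and -0.39 in that order, and Stip1, the adaptor that hands clients from Hsp70 to Hsp90, at -0.15, -0.38, -0.46 and -0.37.

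TRiC, the chaperonin of the cytosol that folds actin and tubulin, had small ratios in most classes. All 8 subunits were compared, and 2 in macrophages, 1 in T cells, and 8 in each B class were below 0, against 48.2%, 52.7%, 53.1% and 42.4% of all genes in macrophages, T cells, Fcer2a/Cr2-negative and Fcer2a/Cr2-positive B cells. None was at -0.5 or lower in any class, and only Cct6a in T cells was at 0.5 or higher, beside the backgrounds given above. The medians were 0.15, 0.10, -0.19 and -0.15 in macrophages, T cells, Fcer2a/Cr2-negative and Fcer2a/Cr2-positive B cells. Cct3 had ratios of 0.37, 0.04, -0.23 and -0.19 in that order, Cct2 0.25, 0.13, -0.17 and -0.22, and Cct7 0.35, 0.15, -0.07 and -0.06. Cct6a in T cells was at 223 CPM in HFD and 128 CPM in CD, a ratio of 0.80.

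Mitochondrial chaperones and proteases other than Hspd1 and Hspe1 had 4, 6, 4 and 5 of 9 genes compared in macrophages, T cells, Fcer2a/Cr2-negative and Fcer2a/Cr2-positive B cells, none of them past 0.5 in size, with medians of -0.03, -0.01, -0.17 and -0.08. Hspa9, the Hsp70 of the matrix, was at -0.06, 0.04, -0.40 and -0.10 in that order, and its exchange factor Grpel1 at -0.00, -0.25, -0.20 and -0.02. The protease subunit Clpp was at -0.23, 0.04, -0.14 and -0.07. Prefoldin, which passes clients to TRiC and of which 5, 5, 5 and 6 of 6 subunits were compared, had medians of -0.04, -0.01, -0.13 and -0.06, with Pfdn5 at -0.33, -0.25, -0.12 and -0.24 and no subunit past 0.5 in size. The shares of all genes past 0.5 in either direction are those given above.

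Chaperones of the endoplasmic reticulum lay below 0 in lymphocytes: 12 of 12 genes compared were below 0 in T cells and in each B class, with medians of -0.28, -0.34 and -0.33 in T cells, Fcer2a/Cr2-negative and Fcer2a/Cr2-positive B cells. In macrophages 4 of 13 were below 0 and the median was 0.14. Of all genes 52.7%, 53.1% and 42.4% were below 0 in T cells, Fcer2a/Cr2-negative and Fcer2a/Cr2-positive B cells, and 48.2% in macrophages. At -0.5 or lower were 0, 1, 2 and 0 genes in macrophages, T cells, Fcer2a/Cr2-negative and Fcer2a/Cr2-positive B cells, beside 6.38%, 7.25%, 3.6% and 1.72% of all genes. In macrophages 1 gene was at 0.5 or higher, beside 5.07% of all genes. Hsp90b1 (Grp94), the Hsp90 of this compartment, was at 916 CPM in HFD and 765 CPM in CD macrophages and at 405 CPM in HFD and 543 CPM in CD Fcer2a/Cr2-negative B cells, ratios of 0.26 and -0.42. Hspa5 (BiP), the Hsp70 of this compartment, was at -0.28, -0.59, -0.73 and -0.35 in macrophages, T cells, Fcer2a/Cr2-negative and Fcer2a/Cr2-positive B cells. The disulfide isomerase Pdia6 was at 0.41, -0.31, -0.38 and -0.32 in that order, and Sdf2l1 at 0.34, -0.17, -0.55 and -0.43.

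**Figure D5:**
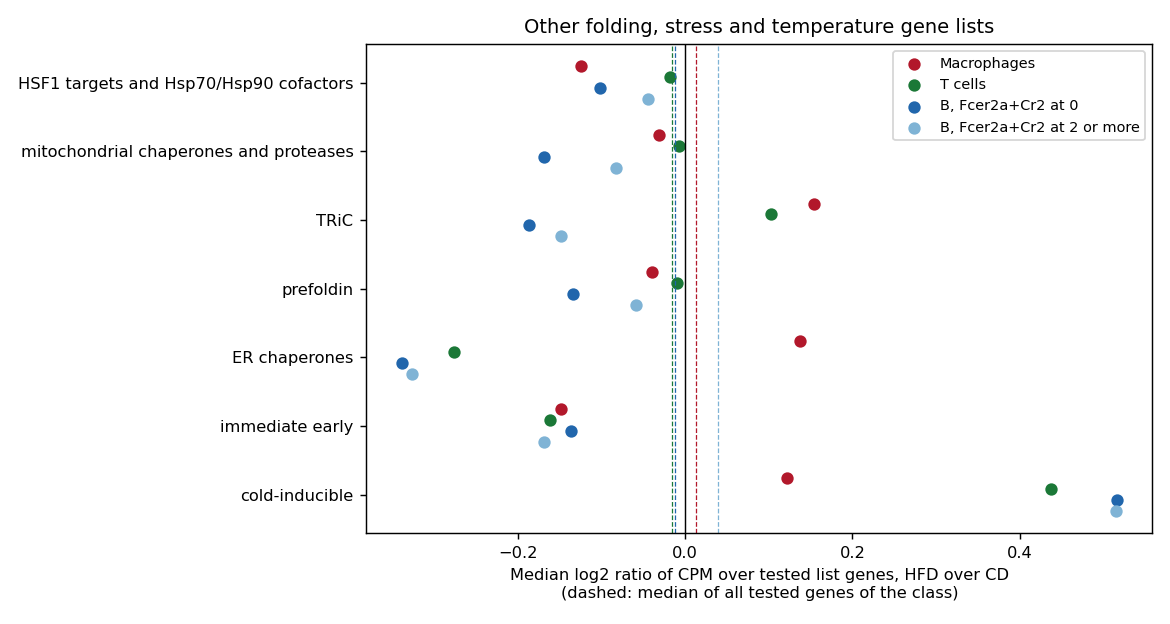
Median log2 ratio of CPM, HFD over CD, over the compared genes of 7 lists in the 4 classes, with dashed lines at the median of all compared genes of each class and a solid line at 0. The medians of TRiC and of the endoplasmic reticulum chaperones are above 0 in macrophages, at 0.15 and 0.14, and below 0 in both B classes, while the cold-inducible genes are the highest list in T and B cells.

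Immediate early genes, which respond to handling of cells as well as to signals, had medians of -0.15, -0.16, -0.14 and -0.17 in macrophages, T cells, Fcer2a/Cr2-negative and Fcer2a/Cr2-positive B cells. Of 12, 9, 10 and 8 of 13 genes compared, 0, 0, 1 and 1 were at -0.5 or lower and 2, 0, 0 and 0 at 0.5 or higher. The shares of all genes in the same order of classes were 6.38%, 7.25%, 3.6% and 1.72% at -0.5 or lower. At 0.5 or higher they were 5.07%, 4.04%, 2.92% and 3.49%. Fos, an AP-1 subunit, was at -0.34, -0.47, -0.49 and -1.21 in that order, Dusp1, a phosphatase of MAP kinases, at -0.38, -0.35, -0.69 and -0.33, Jun at -0.16, -0.34, -0.30 and -0.38, and the RNA decay factor Zfp36 at -0.11, -0.17, -0.22 and -0.20. The genes at 0.5 or higher in macrophages, named after their values were seen, were the nuclear receptor Nr4a1, at 81.5 CPM in HFD and 32.9 CPM in CD, a ratio of 1.31, and the transcription factor Egr1, at 132 CPM in HFD and 74.9 CPM in CD, a ratio of 0.82. Egr1 was at 0.42 in Fcer2a/Cr2-negative B cells.

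The cold-inducible RNA-binding proteins, raised at low temperature in mammalian cells, are represented by Cirbp and Rbm3. Of these 2 genes, 0, 1, 1 and 1 were at 0.5 or higher in macrophages, T cells, Fcer2a/Cr2-negative and Fcer2a/Cr2-positive B cells, beside backgrounds of 5.07%, 4.04%, 2.92% and 3.49%. Cirbp was at 125 CPM in HFD and 85.1 CPM in CD T cells, 125 CPM in HFD and 73.8 CPM in CD Fcer2a/Cr2-negative B cells, and 158 CPM in HFD and 97.6 CPM in CD Fcer2a/Cr2-positive B cells, ratios of 0.56, 0.76 and 0.70. In macrophages it was at 43.3 CPM in HFD and 41.9 CPM in CD, a ratio of 0.04. Rbm3 was at 0.20, 0.31, 0.27 and 0.33 in macrophages, T cells, Fcer2a/Cr2-negative and Fcer2a/Cr2-positive B cells. The part of handling or temperature, to which these lists respond, in the chaperone values was not tested.

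The 5 genes whose ratios over the 4 classes lay nearest to those of the summed members, among 2959 genes searched, were Prpf38b, Cyb5a, Ldah, Polr1h and Pik3r1, with root mean square differences of 0.06, 0.07, 0.07, 0.07 and 0.08 log2 units. Prpf38b was at -0.26, -0.17, -0.33 and -0.30 in macrophages, T cells, Fcer2a/Cr2-negative and Fcer2a/Cr2-positive B cells. With 4 classes from the same pair of libraries, this likeness is a description only.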

How the data were processed

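Droplet 3' expression libraries and B-cell receptor libraries of CD45-sorted peritoneal cells, 1 of each per diet, were used as deposited. The deposited expression matrices hold UMI counts per gene and barcode with no normalization, written by Cell Ranger 8.0.1 per the file headers. Cell Ranger 6.0.1, Seurat 4.3.0 and build mm39 are listed in the submitters' processing notes. Cell-calling settings are not given in the sources used here. The receptor files as deposited give UMI and read counts for each contig, and only their barcodes were used for the classes.

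Counts were summed per class and library and scaled to 1000000 UMIs. Levels carry exact Poisson intervals, ratios the exact conditional interval of Poisson counts, and shares exact binomial intervals, all at 95%. Differences of ratios between classes carry an interval from the normal approximation to the log counts. Genes were compared if their larger value reached 30 CPM and both sums held 50 UMIs together, and counted as lower or higher at a log2 ratio of -0.5 or 0.5. Equal depth means 2000 UMIs drawn per barcode with shallower barcodes left out (64 HFD and 250 CD macrophages, 40 HFD and 156 CD T cells, 53 HFD and 102 CD Fcer2a/Cr2-negative and 17 HFD and 16 CD Fcer2a/Cr2-positive B cells). No test was possible with 1 library per diet, and depth sets the width of the intervals.

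All 10 members are named in all 4 classes; of each other list, up to 4 genes compared in all 4 classes with the largest mean absolute ratio. Members, lists and class rules were chosen with earlier results of these data known. Promoter windows come from a RefSeq table of build GRCm38.p6 and were matched by symbol. The interval code was tested on simulated data. Alternatives changed the barcode filter, weighting, depth, mixed and cycling barcodes, scaling, and barcodes found in both libraries. Python 3.11.15, numpy 2.4.6, pandas 2.3.3 and scipy 1.17.1 were used.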

Additional observations from a re-analysis of the deposited data

Results flagged for a closer look

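The ratio of Hsp90aa1 had the opposite direction in macrophages and in lymphocytes. It was 0.11 in macrophages against -0.14 in T cells, -0.27 in Fcer2a/Cr2-negative B cells and -0.42 in Fcer2a/Cr2-positive B cells, differences of 0.248, 0.378 and 0.527 log2 units. Hsp90ab1 was at 0.06 in macrophages against -0.09, -0.07 and -0.18 in T cells, Fcer2a/Cr2-negative and Fcer2a/Cr2-positive B cells, differences of 0.159, 0.133 and 0.239. The differences were not tested, since each diet has 1 library. At 3000 to 10000 UMIs the macrophage ratios were -0.22 for Hsp90aa1 and -0.02 for Hsp90ab1, below 0 as in lymphocytes, and Hsp90aa1 was at -0.05 thinned to equal depth and -0.00 without cycling barcodes. Without 2-lineage barcodes they were 0.17 (0.08 to 0.26) and 0.08 (0.04 to 0.11). Of 10 alternatives, 7 kept the sign for Hsp90aa1 and 9 for Hsp90ab1. Hsp90aa1 was at 0.02 (-0.20 to 0.24) in macrophages without 2-lineage and cycling barcodes in that depth range.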

How the results depend on the processing

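Of the ratios of single members under the alternatives, 366 stayed within their main counting interval and 26 moved beyond it, and no ratio of 0.5 or more in size changed sign. Smaller ratios that did were those of Hsp90aa1, Hsp90ab1 and Hspe1 in macrophages and of Hspe1 and Hspa1a in T cells. No paired analysis was possible because each diet has 1 library and the labels give no replicate numbers. For the sum of the 10 genes, macrophages gave -0.34 with equal weight per barcode, -0.34 thinned, -0.45 at 3000 to 10000 UMIs and -0.36 without cycling barcodes, against -0.30. T cells gave -0.23 with equal weight, -0.24 in that depth range and -0.16 without immunoglobulin, mitochondrial and ribosomal protein genes in the total, against -0.20. Fcer2a/Cr2-negative B cells gave -0.35 in that depth range, -0.34 without 2-lineage barcodes and -0.34 with the reduced total, against -0.32, and Fcer2a/Cr2-positive B cells -0.44 with the reduced total and -0.43 scaled to the median gene, against -0.39. Members at -0.5 or lower in T cells were 2 with equal weight, against 1. The ratio of median chaperone UMIs per thinned barcode, HFD over CD, was 0.71 in macrophages, 1 in T cells, 0.71 in Fcer2a/Cr2-negative and 0.83 in Fcer2a/Cr2-positive B cells. The ratio of medians per 10000 UMIs without thinning, a different measure, was 0.79, 0.88, 0.80 and 0.78 in that order. The thinned medians are whole UMIs and changed with the draw. In the separate draw used for the distributions over barcodes they were 6 in HFD and 7 in CD T cells, and 5 in HFD and 7 in CD Fcer2a/Cr2-positive B cells. At 3000 to 10000 UMIs the ratio of medians was 0.76 in macrophages and 0.77 in Fcer2a/Cr2-negative B cells. The cause of these shifts was not tested. Leaving out the 30 barcodes found in both libraries, chosen after seeing the data, moved none of these values beyond the spread of the counts. Depth limits Hspa1a and Hspa1b in lymphocytes: in T cells Hspa1a was at 0.84 in the depth range of 3000 to 10000 UMIs, against -0.13.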
